A study of Homo sapiens with 12 samples.

Results

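The lysosome is represented here by 42 genes: 6 lysosomal membrane proteins, 22 hydrolases and their activator proteins, and 14 subunits, 1 of them accessory, of the vacuolar proton pump (V-ATPase). They were chosen by name, as the rows of either deposited table whose gene symbol matched a listed symbol, and are 42 of the 12372 genes found in at least 1 of the tables. Polyadenylated RNA was sequenced from 23132/87, an established gastric adenocarcinoma line, and from SW48, an established colorectal adenocarcinoma line, both labelled wild type. Both were exposed for 48 h to 10 µM myricone C, which the series title calls a neolignan of Myristica fragrans, or to 0.1% DMSO as vehicle. Each of the 4 groups held 3 biological replicates, 12 libraries in all, and every mean below has n = 3.

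Lysosomes are acidic compartments in which hydrolases degrade proteins, glycans and lipids delivered by endocytosis and autophagy. Most soluble hydrolases carry a mannose 6-phosphate tag and reach the lysosome through receptors of the Golgi, while heavily glycosylated membrane proteins such as LAMP1 and LAMP2 line its inner face. The V-ATPase acidifies the lumen: its cytosolic V1 sector hydrolyses ATP, and its membrane-embedded V0 sector carries the protons. Many of these genes have E-box elements of the CLEAR type near their start sites, which the factors TFEB, TFE3 and MITF bind.

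The deposited values are a signal per gene on a linear scale of unstated unit, so levels of different genes were not ranked and read depth is unknown. Changes are log2 differences of (signal + 1), myricone C minus vehicle, with limma's standard error, and a gene was called higher or lower at an adjusted p under 0.05 over all listed genes. The summed signal of a library ranged from 464037 to 536594. Myricone C replicate 1 of SW48 stood apart, with 5.26% of its signal in 7SL and small nuclear RNA rows against 0.0493% to 0.204% in the other SW48 libraries. None of 10 leukocyte and macrophage markers was listed in either table, and 1 of 10 mesenchymal markers was listed in each. Of 11 gastric epithelial markers, 3 were listed in 23132/87 (TFF1, MUC1 and AGR2) and 0 in SW48, with AGR2 called higher with myricone C and TFF1 and MUC1 lower, and TFF2, MUC5AC, MUC6, GKN1, GKN2, CLDN18, CTSE and PGC were in neither table. Of 11 genes searched for as intestinal epithelial markers, 8 were listed in each line. EPCAM, KRT8, KRT18 and KRT19 among them are general epithelial genes, so the sum below is not a measure of intestinal identity. CDX2, CEACAM5, CDH17, EPCAM, KRT8, KRT18 and KRT19 were listed in both, VIL1 in 23132/87 only and LGR5 in SW48 only. The summed signal of the 8 moved with treatment, from 8079 to 10817 in vehicle to 2990 to 4207 with myricone C in 23132/87, and from 986 to 1781 in vehicle to 2689 to 3894 in SW48. By gene, 0 of the 8 were called higher and 5 lower in 23132/87, and 4 higher and 2 lower in SW48, where changes ran from -1.47 to 1.57. The part of these marker changes in the results below was not tested. In cultures measured in bulk, fewer cells of a kind and less RNA per cell cannot be told apart.

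In 23132/87 the lysosomal genes split: 9 of the 41 listed members were higher with myricone C, 10 were lower and 22 were not called. Over all 11070 genes of that table, 23.3% were called higher, 23.2% lower and 46.5% in either direction, so the members' share called, 46.3%, was close to the background. The members' median change was -0.14 against 0.01 for all genes. In SW48 the calls ran one way: 0 of the 40 listed members were higher, 19 were lower and 21 were not called by limma. At an unadjusted p under 0.05, 1 member was higher (NEU1) and 21 were lower. The background in SW48 was 10.1% higher, 19.2% lower and 29.3% in either direction over 11554 genes, and 47.5% of the members were called. Their median change was -0.34, against -0.08 over the whole SW48 table.

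The SW48 count of 19 lower members fell to 11 when replicate 2 of either group or vehicle replicate 3 was left out, and was 18 without replicate 1 of the treated group. Under quantile normalization it was 12, with 1 member higher, and 46.2% of all calls were then higher in place of 34.6%. Mitochondrial pseudogene rows held 16.6% to 18.1% of the signal in SW48 vehicle and 13.5% to 15.3% with myricone C. Rescaled without these and the small RNA rows, 13 of the 19 calls were kept and 46.4% of all calls were higher. No called member changed sign under any alternative run.

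**Figure D1:**
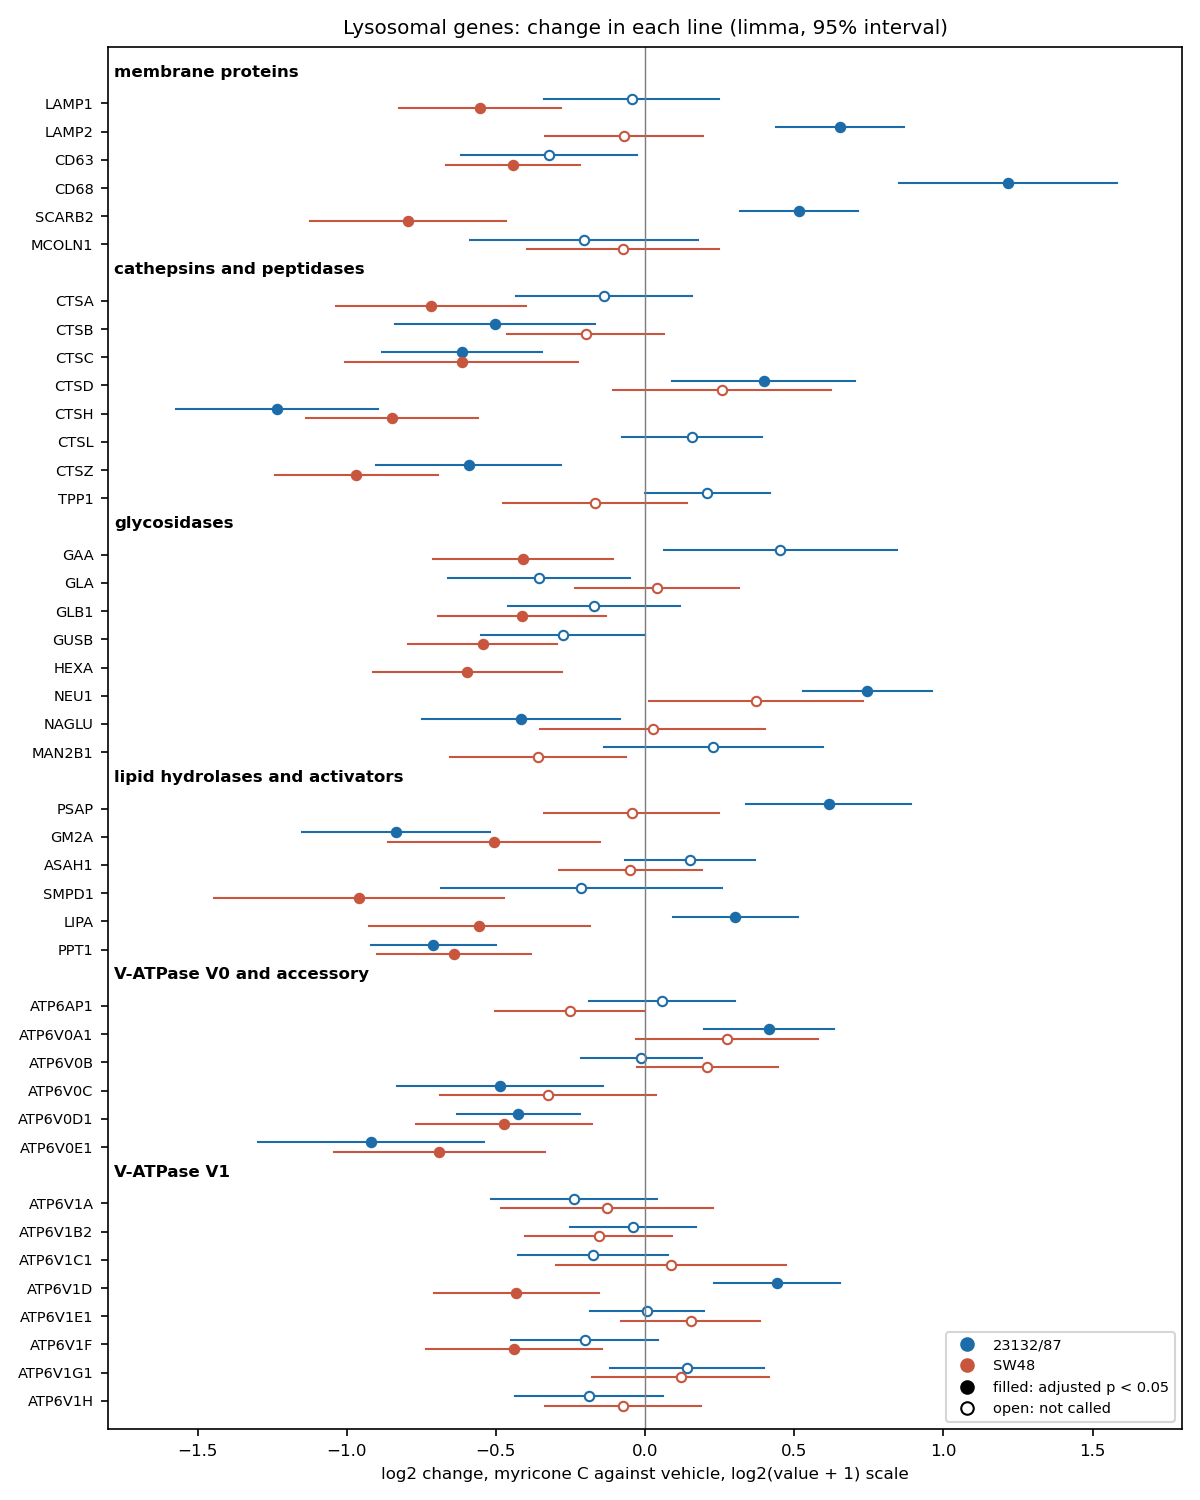
Log2 change of each lysosomal gene (x axis, log2 of signal + 1, myricone C minus vehicle) by class, with limma's 95% interval, for 23132/87 in blue and SW48 in red. Filled points passed the adjusted threshold. The 19 filled red points lie left of 0, while 9 filled blue points lie to the right and 10 to the left.

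Read without a test, the 3 values per group were apart in 21 of 41 members in 23132/87, 10 with all treated libraries higher and 11 with all lower. Over all genes of that table, 28.9% were apart and higher and 27.9% apart and lower. In SW48, 2 members were apart and higher (ATP6V0B and ATP6V1E1), 21 were apart and lower and 17 overlapped, against a background of 16.8% and 28.4%.

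By class, membrane proteins had 3 higher and 0 lower of 6 in 23132/87 (1 lower at an unadjusted p under 0.05, CD63), and 0 higher and 3 lower of 5 in SW48, with medians of 0.24 and -0.44. Hydrolases and activators had 4 higher and 7 lower of 21 in 23132/87, and 0 higher and 12 lower of 21 in SW48, with medians of -0.17 and -0.41. V-ATPase subunits moved least in their medians, -0.11 and -0.14. They had 2 higher and 3 lower of 14 in 23132/87, and 0 higher and 4 lower of 14 in SW48. In 23132/87 the shares called were 50% of membrane proteins, 52.4% of hydrolases and 35.7% of V-ATPase subunits, against 46.5% of all genes. For SW48 the shares were 60%, 57.1% and 28.6%, against 29.3% of all genes. The V-ATPase share was thus below the background in 23132/87 and near it in SW48. In 23132/87 the 4 higher hydrolases became 2 without vehicle replicate 2, myricone C replicate 2 or myricone C replicate 3. In SW48 the 12 lower hydrolases became 7, and the 4 lower V-ATPase subunits became 1, without vehicle replicate 2, vehicle replicate 3 or myricone C replicate 2.

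The summed signal of a class weights each gene by its level. For the 5 listed membrane proteins of SW48 it was 412 ± 18.4 (SD) in vehicle and 287 ± 19.3 with myricone C. The 21 hydrolases and activators summed to 1248 ± 40.7 and 1044 ± 48.6, and the 14 pump subunits to 706 ± 12.4 and 612 ± 33.3. In all 3 classes the SW48 groups did not overlap. The signal summed over all genes was also lower in every treated library. In SW48 it was 477551 to 499845, against 509551 to 536594 in vehicle. As shares of all listed signal the SW48 classes stayed apart. Membrane proteins were at 0.0753% to 0.0849% in vehicle and 0.0560% to 0.0618% with myricone C, hydrolases at 0.228% to 0.254% and 0.208% to 0.219%, and pump subunits at 0.132% to 0.137% and 0.120% to 0.128%. In 23132/87 the membrane proteins summed to 516 ± 19.4 and 512 ± 65.9, and the hydrolases to 1370 ± 88.2 and 1393 ± 164, with overlapping libraries in both. Only the pump subunits were apart in that line, at 784 ± 4.26 in vehicle and 709 ± 46.3 with myricone C. Myricone C replicate 1 of 23132/87 had the lowest of the 6 sums in each class and also the lowest summed signal over all genes, 464037 against 502899 to 525838. As a share of all listed signal, its hydrolases, at 0.259%, lay above those of vehicle replicate 3, at 0.244%. The pump subunits of that line were at 0.149% to 0.152% in vehicle and 0.142% to 0.148% with myricone C, still apart.

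**Figure D2:**
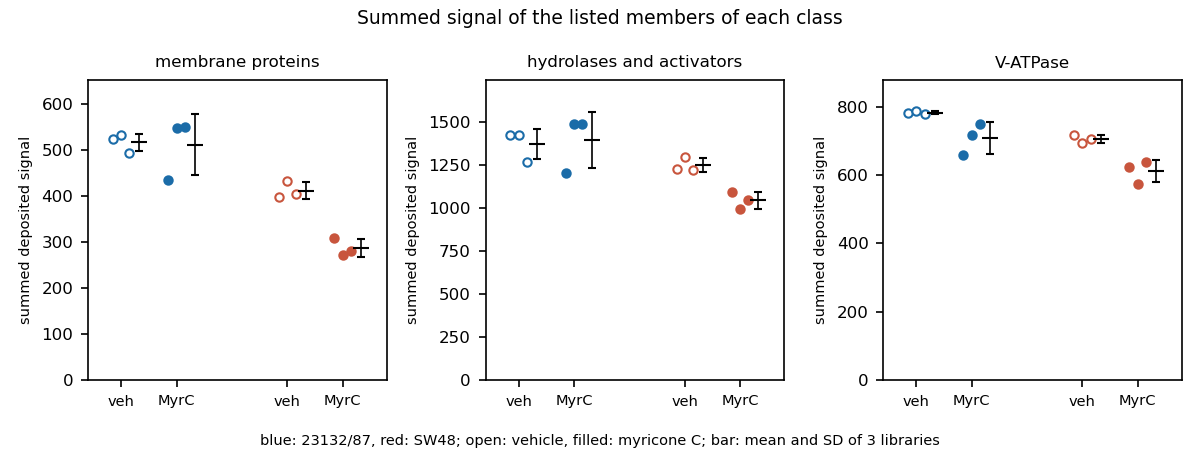
Summed deposited signal of the listed members of each class (y axis) in every library, vehicle (open) and myricone C (filled), for 23132/87 (blue) and SW48 (red), with mean and SD of 3 libraries. The SW48 groups are apart in all 3 panels, and in 23132/87 they are apart for the V-ATPase.

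Promoters of the members were searched because the lysosomal E-box is a sequence these genes are known to share. Of the 42 members, 31 matched the RefSeq promoter table (GRCh38.p14, 250 bases before to 50 after each start), and 10 of these, or 32.3%, held CACGTG, which reads the same on both strands. Among genes of either expression table with a promoter entry the share was 13.1%, and among all genes with an entry 8.77%. The longer palindrome in which GT precedes and AC follows CACGTG, every match of which is also a CACGTG match, was in 3 members (ATP6V1G1, GAA and MCOLN1), or 9.68%, against 0.948% and 0.421%. A match is a description of the letters, not of binding. The stretches below, upstream of the start on the gene's strand, carry the match. Their genes include some called higher, some called lower and MCOLN1, called in neither line. Capitals mark CACGTG.
LAMP1: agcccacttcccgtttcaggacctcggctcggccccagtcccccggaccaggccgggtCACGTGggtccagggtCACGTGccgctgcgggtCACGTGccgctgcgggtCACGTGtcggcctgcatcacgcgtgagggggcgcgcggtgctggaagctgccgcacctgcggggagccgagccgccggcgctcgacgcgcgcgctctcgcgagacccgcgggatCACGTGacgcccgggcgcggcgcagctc
MCOLN1: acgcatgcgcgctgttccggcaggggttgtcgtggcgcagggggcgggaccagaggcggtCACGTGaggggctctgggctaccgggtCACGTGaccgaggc
CTSA: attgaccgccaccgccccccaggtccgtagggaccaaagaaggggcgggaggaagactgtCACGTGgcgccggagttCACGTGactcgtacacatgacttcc
GAA: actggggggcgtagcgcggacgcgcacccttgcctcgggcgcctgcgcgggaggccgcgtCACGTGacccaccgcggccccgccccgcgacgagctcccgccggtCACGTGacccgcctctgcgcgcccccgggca
CTSD: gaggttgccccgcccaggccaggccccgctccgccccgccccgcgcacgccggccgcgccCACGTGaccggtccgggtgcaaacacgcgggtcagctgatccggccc
NEU1: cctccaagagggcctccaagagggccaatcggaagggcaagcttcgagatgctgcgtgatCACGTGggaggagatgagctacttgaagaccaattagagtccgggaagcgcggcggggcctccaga
ATP6V0D1: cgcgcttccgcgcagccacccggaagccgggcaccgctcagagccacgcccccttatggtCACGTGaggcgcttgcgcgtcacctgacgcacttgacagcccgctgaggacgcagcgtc
The LAMP1 stretch, chr13:113296989-113297238 on the plus strand, holds 5 matches, and the last of its 6, outside the stretch, spans the start itself. MCOLN1 (chr19:7522523-7522623, plus), CTSA (chr20:45891233-45891334, plus) and GAA (chr17:80101445-80101580, plus) hold 2 each. CTSD (chr11:1763928-1764034, minus), NEU1 (chr6:31862882-31863007, minus) and ATP6V0D1 (chr16:67481158-67481276, minus) hold 1 each. The other holders were ATP6V0B, ATP6V1G1 and, at 1 of its 8 listed starts, CD63. Of the 10 holders, 2 were higher (CTSD and NEU1), 1 was lower (ATP6V0D1) and 7 were not called in 23132/87. In SW48, 0 were higher, 5 were lower (ATP6V0D1, CD63, CTSA, GAA and LAMP1) and 5 were not called. The 21 matched members without the hexamer gave 5 higher and 6 lower in 23132/87, and 0 higher and 12 lower of 19 in SW48. Medians were -0.03 and -0.24 with the hexamer, and -0.17 and -0.44 without it.

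Among membrane proteins, the scavenger-receptor family member SCARB2 (LIMP-2, chr4:76158733-76234536), which carries glucocerebrosidase to the lysosome, changed in opposite directions. In 23132/87 its signal was 70.5, 74.0 and 76.6 in vehicle and 101, 110.2 and 107 with myricone C, and in SW48 it was 87.1, 122 and 89.3 and 63.7, 49.5 and 56.6. All treated libraries were above all vehicle libraries in 23132/87 and below them in SW48. The changes were 0.52 ± 0.09, adjusted p = 0.00117 and -0.79 ± 0.15, adjusted p = 0.00277. LAMP2 (chrX:120427827-120469365), which with LAMP1 is among the most abundant proteins of the lysosomal membrane and has an isoform that serves as the receptor of chaperone-mediated autophagy, rose in 23132/87 and was not called in SW48. Its signal there was 28.1, 28.8 and 28.8 in vehicle and 42.1, 49.5 and 45.4 with the compound, and in SW48 26.8, 32.1 and 32.2 and 30.2, 28.6 and 27.4. The 23132/87 groups were apart (0.65 ± 0.10, adjusted p = 0.000463) and the SW48 groups overlapped (-0.07 ± 0.12, adjusted p = 0.695).

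LAMP1 (chr13:113297241-113323672) was called in SW48 only, where it fell. Its SW48 signal was 134, 137 and 132 in vehicle and 107, 87.6 and 80.3 with myricone C, with every treated library lower (-0.55 ± 0.12, adjusted p = 0.00655). In 23132/87 the LAMP1 values overlapped, at 92.1, 105 and 88.7 and 75.4, 99.2 and 104 (-0.05 ± 0.13, adjusted p = 0.804). CD63, a tetraspanin of late endosomes and exosomes, fell in SW48 from 142 ± 4.72 (SD) to 104 ± 5.65 (-0.44 ± 0.10, adjusted p = 0.00829). In 23132/87 CD63 was at 307 ± 14.5 and 248 ± 42.7 and missed the threshold (-0.32 ± 0.13, adjusted p = 0.0702), although its groups did not overlap. CD68, a glycoprotein best known from macrophages, had the largest rise of any member in either line. It was 6.17, 6.48 and 3.95 in 23132/87 vehicle and 14.1, 12.9 and 14.8 with myricone C, all treated libraries being higher, 2.52-fold by the means (1.22 ± 0.16, adjusted p = 0.000288). CD68 was not in the SW48 table, and a listed antisense gene overlaps its exons. MCOLN1, the lysosomal calcium channel TRPML1, was low and was called in neither line (-0.20 ± 0.17, adjusted p = 0.352 in 23132/87 and -0.07 ± 0.15, adjusted p = 0.735 in SW48).

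Among the members, cathepsins had the largest fall of each line on the log2(signal + 1) scale, although by the ratio of means SMPD1, a low gene described below, fell further in SW48 (0.423 times the vehicle mean against 0.505 for CTSZ). CTSH (chr15:78921058-78949574), a cysteine protease with aminopeptidase activity, was 22.3, 23.7 and 22.0 in 23132/87 vehicle and 6.83, 10.4 and 10.4 with myricone C. In SW48 it was 40.3, 42.7 and 46.1 and 27.4, 20.5 and 22.8. Treated libraries were below all vehicle libraries in both lines, with treated means 0.407 and 0.548 times the vehicle means. The changes were -1.23 ± 0.15, adjusted p = 0.000173 in 23132/87 and -0.85 ± 0.13, adjusted p = 0.000950 in SW48. CTSZ (chr20:58995185-59007247), a carboxypeptidase also called cathepsin X, had the largest log2 fall of the class in SW48, from 69.9, 76.9 and 63.7 to 39.5, 31.8 and 34.9 (-0.97 ± 0.12, adjusted p = 0.000363). In 23132/87 CTSZ went from 199.7, 184 and 162 to 97.0, 130.3 and 137 (-0.59 ± 0.14, adjusted p = 0.00663), and the groups were again apart.

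CTSC, the dipeptidyl peptidase that activates granule serine proteases in leukocytes, fell in both lines. Its signal was 73.1, 76.1 and 82.4 in vehicle and 41.8, 56.0 and 53.6 with the compound in 23132/87 (-0.61 ± 0.12, adjusted p = 0.00252), and 46.4, 46.9 and 50.6 and 31.1, 23.0 and 41.4 in SW48 (-0.61 ± 0.18, adjusted p = 0.0239). The groups were apart in both lines, with the widest treated spread in SW48. The SW48 call was lost without any 1 of the vehicle replicates or without myricone C replicate 2, at adjusted p from 0.0509 to 0.0842. CTSA, the serine carboxypeptidase that protects GLB1 and NEU1 in a complex, fell in SW48 from 69.8, 73.8 and 76.5 to 56.1, 37.8 and 40.6 (-0.72 ± 0.15, adjusted p = 0.00404), with no overlap. In 23132/87 CTSA was at 144 ± 7.50 and 132 ± 23.4 with overlapping groups (-0.14 ± 0.13, adjusted p = 0.416).

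CTSD, the main aspartic protease of the lysosome, was the single peptidase called higher. It was 193, 199 and 159 in 23132/87 vehicle and 199.6, 259 and 272 with myricone C (0.40 ± 0.14, adjusted p = 0.0376), the lowest treated value lying just above the highest vehicle value. That call was lost without any 1 of 5 of the 6 libraries, at adjusted p from 0.0540 to 0.129, and kept without myricone C replicate 1. In SW48 CTSD was at 188, 121 and 164 and 211, 195 and 156 with overlap (0.26 ± 0.17, adjusted p = 0.269). CTSB, a cysteine protease, fell in 23132/87 from 89.8 ± 14.5 to 63.2 ± 10.9 (-0.50 ± 0.15, adjusted p = 0.0204), a call lost without vehicle replicate 2 at an adjusted p of 0.0871. In SW48 CTSB was at 228 ± 17.9 and 199 ± 22.4 (-0.20 ± 0.12, adjusted p = 0.233). CTSL, listed in 23132/87 only, was not called (0.16 ± 0.11, adjusted p = 0.244), nor was the tripeptidyl peptidase TPP1 in either line (0.21 ± 0.09 and -0.17 ± 0.14).

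Of the glycosidases, NEU1 (chr6:31857659-31862906), the lysosomal sialidase, had the largest called change in 23132/87. It was 16.7, 16.4 and 15.5 in vehicle and 29.2, 26.7 and 27.6 with myricone C, and all treated libraries were higher (0.74 ± 0.10, adjusted p = 0.000233). The SW48 values were 5.76, 8.64 and 5.89 and 8.03, 9.19 and 9.57, with overlap, and was not called (0.37 ± 0.16, adjusted p = 0.110). HEXA, the alpha subunit of beta-hexosaminidase A, had the largest called change of the class in SW48, from 50.5, 65.4 and 50.7 to 42.6, 33.4 and 33.0 (-0.60 ± 0.14, adjusted p = 0.0102), with no overlap. HEXA was not in the 23132/87 table. GAA (chr17:80101556-80119879), the acid alpha-glucosidase that degrades glycogen, was 29.8, 29.9 and 26.5 in SW48 vehicle and 25.3, 18.2 and 21.3 with myricone C. All treated SW48 values were lower (-0.41 ± 0.14, adjusted p = 0.0446). That call was lost in 5 of the 6 fits that left out a library, all but the one without myricone C replicate 1, at adjusted p from 0.0701 to 0.176. Over all alternatives, scalings and replicate blocks included, it was lost in 12 of 17. In 23132/87 the GAA signal was 4.98, 3.22 and 2.94 in vehicle and 4.83, 5.06 and 6.23 with myricone C, which overlapped and was not called (0.45 ± 0.18, adjusted p = 0.0570). Levels were not tested between the lines because the tables were scaled separately.

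GUSB, the beta-glucuronidase, fell in SW48 from 39.4 ± 2.37 to 26.7 ± 1.65 (-0.54 ± 0.11, adjusted p = 0.00458), and GLB1, the beta-galactosidase of the senescence stain, from 29.4 ± 2.00 to 21.9 ± 2.82 (-0.41 ± 0.13, adjusted p = 0.0317). The GLB1 call was lost when vehicle replicate 2, vehicle replicate 3, myricone C replicate 1 or myricone C replicate 2 was left out, at adjusted p from 0.0582 to 0.124. In 23132/87 neither was called, with changes of -0.28 ± 0.12 for GUSB and -0.17 ± 0.13 for GLB1. NAGLU, which removes N-acetylglucosamine from heparan sulfate, fell in 23132/87 from 7.25 ± 1.31 to 5.14 ± 0.548 (-0.42 ± 0.15, adjusted p = 0.0423). Its call was lost when replicate 1 of either group, vehicle replicate 2 or myricone C replicate 3 was left out, at adjusted p from 0.0853 to 0.145, and in SW48 its change was 0.03 ± 0.17. GLA, the alpha-galactosidase of Fabry disease, and MAN2B1, an alpha-mannosidase, were called in neither line. GLA gave -0.35 ± 0.14, adjusted p = 0.0567 in 23132/87 and 0.04 ± 0.12, adjusted p = 0.833 in SW48. MAN2B1 gave 0.23 ± 0.16, adjusted p = 0.278 and -0.36 ± 0.13, adjusted p = 0.0656, and its SW48 groups were apart.

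Of the enzymes and activators of lipid breakdown, 2 fell in both lines. PPT1, a thioesterase that removes palmitate from proteins, was 78.4, 73.5 and 79.4 in 23132/87 vehicle and 43.3, 50.2 and 46.9 with myricone C, and 66.5, 73.4 and 74.2 and 44.5, 41.3 and 50.8 in SW48. The groups were apart by a wide margin in both lines (-0.71 ± 0.09, adjusted p = 0.000260 in 23132/87 and -0.64 ± 0.12, adjusted p = 0.00237 in SW48). GM2A, the activator that presents ganglioside GM2 to hexosaminidase A, was 17.1, 17.2 and 15.9 and 7.16, 9.25 and 10.7 in 23132/87 (-0.83 ± 0.14, adjusted p = 0.00110), where all treated libraries were lower. In SW48 it was 16.5, 17.7 and 18.9 and 15.9, 10.3 and 10.8 (-0.51 ± 0.16, adjusted p = 0.0357), again apart, with myricone C replicate 1 just below the vehicle range. The SW48 call of GM2A was lost without any 1 library other than myricone C replicate 1, at adjusted p from 0.0594 to 0.135.

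PSAP (chr10:71816298-71851375), the precursor of the saposins that activate sphingolipid hydrolases, rose in 23132/87. Its signal was 244, 226 and 188 in vehicle and 299.6, 348 and 359.7 with myricone C, with all treated libraries higher (0.62 ± 0.12, adjusted p = 0.00283). The SW48 values were 183, 244 and 192 and 205, 176 and 217, overlapping (-0.05 ± 0.13, adjusted p = 0.827). LIPA (chr10:89213569-89414557), the acid lipase that releases cholesterol and fatty acids, was 22.0, 22.6 and 24.4 and 28.1, 28.3 and 29.3 in 23132/87, small in size but without overlap (0.30 ± 0.09, adjusted p = 0.0243). In SW48 it was 21.1, 31.9 and 30.0 and 21.7, 16.8 and 16.7, called lower (-0.56 ± 0.17, adjusted p = 0.0292) although vehicle replicate 1 lay within the treated range. The LIPA call in 23132/87 was lost when replicate 2 of either group, vehicle replicate 1 or myricone C replicate 3 was left out (adjusted p from 0.0717 to 0.0814). In SW48 it was lost when replicate 2 or 3 of either group was left out (0.0896 to 0.108). SMPD1, the acid sphingomyelinase, was low and fell in SW48 from 4.78, 8.90 and 4.87 to 3.24, 2.68 and 1.93 (-0.96 ± 0.22, adjusted p = 0.00814), with all treated libraries lower. In 23132/87 SMPD1 was at 1.78, 4.02 and 3.47 and 2.11, 2.84 and 2.34 with overlap (-0.21 ± 0.21, adjusted p = 0.434). ASAH1, the acid ceramidase, was called in neither line (0.15 ± 0.10 and -0.05 ± 0.11).

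In the V0 sector of the proton pump, ATP6V0E1 (chr5:172983757-173035445), a small membrane subunit, had the largest fall in both lines. Its signal was 93.4, 84.1 and 81.2 in 23132/87 vehicle and 33.0, 48.9 and 56.5 with myricone C, and 68.7, 73.8 and 74.8 and 56.7, 34.2 and 45.3 in SW48. The groups were apart in both lines, with a wide treated spread (-0.92 ± 0.17, adjusted p = 0.00177 in 23132/87 and -0.69 ± 0.16, adjusted p = 0.00848 in SW48). ATP6V0D1, the subunit that couples V0 to the rotor of V1, was 60.5, 66.0 and 58.1 and 43.6, 46.9 and 46.1 in 23132/87, and 44.3, 43.4 and 42.4 and 37.0, 30.6 and 26.2 in SW48. All treated libraries were lower in both lines (-0.42 ± 0.09, adjusted p = 0.00426 and -0.47 ± 0.13, adjusted p = 0.0220). The SW48 call was lost without any 1 library other than myricone C replicate 1, at adjusted p from 0.0517 to 0.0854.

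ATP6V0C, the proteolipid of the proton-carrying ring, fell in 23132/87 from 84.5 ± 5.38 to 61.1 ± 13.8 (-0.49 ± 0.16, adjusted p = 0.0271), a call lost without vehicle replicate 1 or 2 (adjusted p 0.0718 and 0.0802). In SW48 it gave -0.33 ± 0.16, adjusted p = 0.158. ATP6V0A1, an isoform of the large V0 subunit, was the V0 member that rose in 23132/87, from 21.5, 23.6 and 24.6 to 30.0, 31.1 and 32.7 with no overlap (0.42 ± 0.10, adjusted p = 0.00656). In SW48 it was at 21.7 ± 2.35 and 26.5 ± 3.91 and was not called (0.27 ± 0.14, adjusted p = 0.160). ATP6V0B, the second proteolipid, and the accessory protein ATP6AP1 were called in neither line. ATP6V0B gave -0.01 ± 0.09 in 23132/87 and 0.21 ± 0.11 in SW48, and ATP6AP1 gave 0.06 ± 0.11 and -0.25 ± 0.11.

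Of the 8 V1 subunits, 1 was higher and 0 were lower in 23132/87 (0 lower also at an unadjusted p under 0.05), and 0 were higher and 2 lower in SW48. These are 12.5% and 25% called, against 46.5% and 29.3% of all genes. The member called in both lines was ATP6V1D (chr14:67294371-67360265), a subunit of the central rotor. ATP6V1D was 29.9, 31.5 and 32.0 in 23132/87 vehicle and 42.6, 45.6 and 39.9 with myricone C, and 29.5, 33.9 and 36.0 and 26.8, 22.8 and 23.2 in SW48. Treated libraries were all higher in 23132/87 (0.44 ± 0.09, adjusted p = 0.00385) and all lower in SW48 (-0.43 ± 0.13, adjusted p = 0.0243). The SW48 call was lost when replicate 2 or 3 of either group was left out, at adjusted p from 0.0646 to 0.0987. ATP6V1F, another rotor subunit, fell in SW48 from 162, 151 and 140.0 to 101, 99.6 and 135, with all treated libraries lower (-0.44 ± 0.13, adjusted p = 0.0304), a call lost without any 1 library other than myricone C replicate 3 (0.0545 to 0.116). In 23132/87 ATP6V1F gave -0.20 ± 0.11, adjusted p = 0.159. The catalytic and regulatory subunits ATP6V1A and ATP6V1B2, the stalk subunits ATP6V1C1, ATP6V1E1 and ATP6V1G1, and ATP6V1H were called in neither line. Their changes ran from -0.24 (ATP6V1A) to 0.14 (ATP6V1G1) in 23132/87 and from -0.16 (ATP6V1B2) to 0.15 (ATP6V1E1) in SW48. For ATP6V1E1 in 23132/87 the interval was narrow, -0.18 to 0.20, around means of 67.1 ± 1.33 and 67.4 ± 2.44.

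Across both lines, 7 of the 39 members listed in both tables were lower in each: the cathepsins CTSC, CTSH and CTSZ, GM2A, PPT1 and the V0 subunits ATP6V0D1 and ATP6V0E1. No member was higher in each. Calls were opposite for 3, higher in 23132/87 and lower in SW48 (ATP6V1D, LIPA and SCARB2). Of these, SCARB2 kept both calls under every alternative run. ATP6V1D lost its SW48 call in 8 of 17 alternatives. LIPA lost its call in 6 of 16 in 23132/87 and in 7 of 17 in SW48. Another 5 were called higher in 23132/87 and not called in SW48 (ATP6V0A1, CTSD, LAMP2, NEU1 and PSAP), 3 lower in 23132/87 and not called in SW48 (ATP6V0C, CTSB and NAGLU), and 8 lower in SW48 and not called in 23132/87. The other 13 were called in neither. The matching counts over all genes in both tables were not taken, so these cross-line counts have no background beside them. CTSH, CTSZ, PPT1 and ATP6V0E1 kept their call in both lines under every alternative run.

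**Figure D3:**
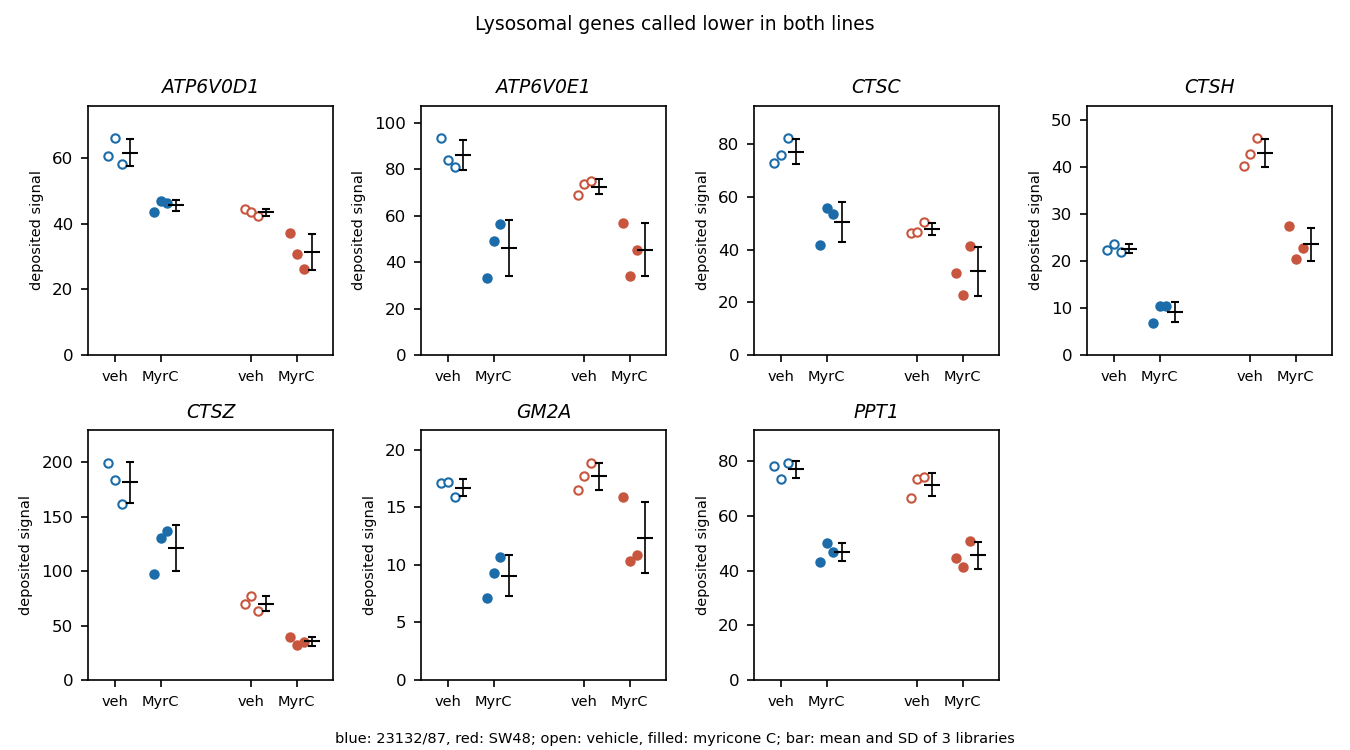
Deposited signal (y axis, from 0) of the 7 members called lower in both lines, in every library, with mean and SD of 3: vehicle open, myricone C filled, 23132/87 blue, SW48 red. In each panel and line all treated points lie below all vehicle points, and CTSH in 23132/87 falls from 22.7 to 9.21 in its means.

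**Figure D4:**
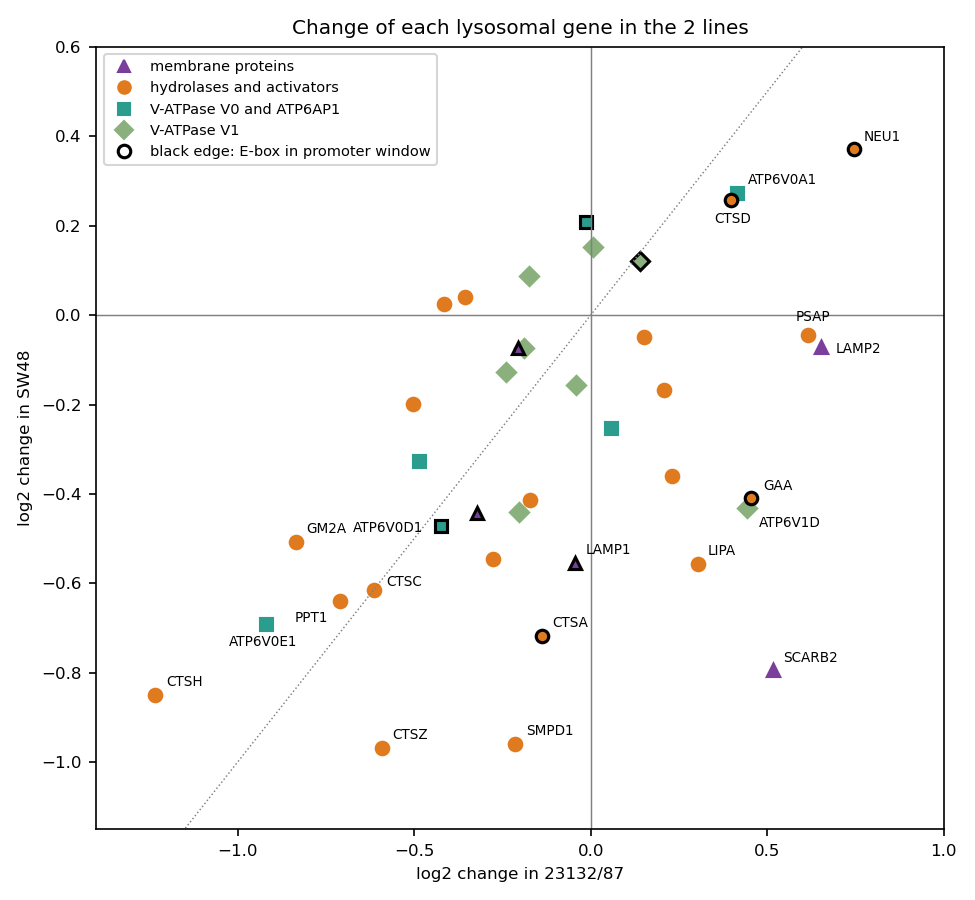
Log2 change in 23132/87 (x axis) and in SW48 (y axis) of the 39 members listed in both tables, by class, with the dotted line of equal change and a black edge for CACGTG in the promoter window. The 7 members lower in both lie at the lower left, and SCARB2, LIPA and ATP6V1D lie at the lower right.

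Whether the response itself differed between the lines was tested by the line-by-treatment term, with the 23132/87 change subtracted from that in SW48. Of 39 members, 0 were higher, 6 were lower and 33 were not called by limma, and at an unadjusted p under 0.05 1 was higher (GLA) and 11 were lower. Over the 10252 genes in both tables, 5.34% were higher, 7.43% lower and 12.8% called in either direction. The members' share, 15.4%, was near that background, and their median difference was -0.14 against -0.09 for all genes. SCARB2 had the largest difference (-1.31 ± 0.18, adjusted p = 0.000585), from a rise to 1.44 times the vehicle mean in 23132/87 and a fall to 0.568 times in SW48. ATP6V1D followed (-0.87 ± 0.15, adjusted p = 0.00218), then GAA (-0.86 ± 0.23, adjusted p = 0.0236), LIPA (-0.86 ± 0.20, adjusted p = 0.0127), LAMP2 (-0.72 ± 0.14, adjusted p = 0.00543) and PSAP (-0.66 ± 0.19, adjusted p = 0.0326). By role these are 2 membrane proteins, a glycosidase, a lipase, an activator precursor and a pump subunit, and none is a peptidase in this fit. Without myricone C replicate 1 of 23132/87 or of SW48, the peptidase CTSA and LAMP1 were called lower as well (adjusted p from 0.0146 to 0.0322). For LAMP2 and PSAP the difference came with a rise in 23132/87 and overlapping groups in SW48.

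SCARB2, ATP6V1D, LIPA and LAMP2 stayed called in every alternative run. GAA was lost in 8 of 21 alternatives (adjusted p 0.0516 to 0.0786). These were quantile normalization, both replicate blocks, and leaving out vehicle replicate 2, vehicle replicate 3 or myricone C replicate 3 of 23132/87 or replicate 2 of either SW48 group. PSAP was lost in 8 of 22 (0.0567 to 0.0880), which were median-centred scaling, the replicate block by title numbers, and leaving out any of those 5 libraries or myricone C replicate 2 of 23132/87. The 3 hydrolases lower in the difference became 1 without vehicle replicate 3 or myricone C replicate 3 of 23132/87 or without replicate 2 of either SW48 group. Without vehicle replicate 2 of 23132/87 there were 2, LIPA and MAN2B1, and without myricone C replicate 2 of 23132/87 also 2, LIPA and GAA. The share of all calls that was higher in SW48 moved from 41.8% to 53.5% under quantile normalization and 57.1% under median-centred scaling. The 7 members lower in both lines had differences from -0.38 (CTSZ) to 0.38 (CTSH), none of them called.

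**Figure D5:**
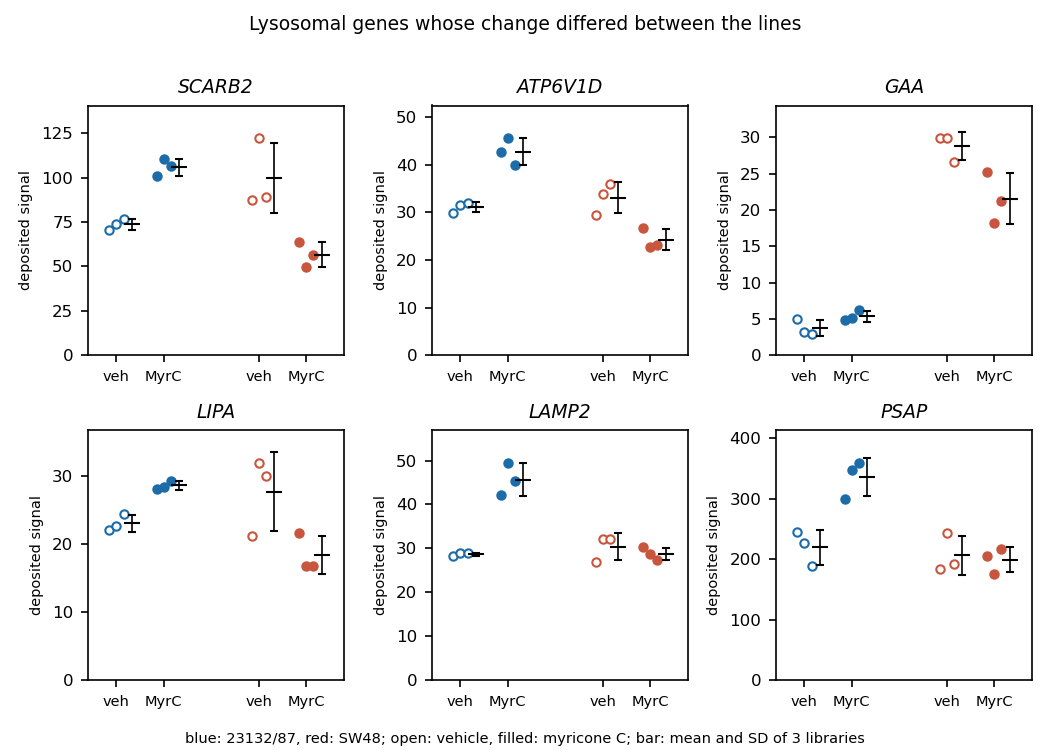
Deposited signal (y axis, from 0) in every library of the 6 members whose change differed between the lines, with mean and SD of 3: vehicle open, myricone C filled, 23132/87 blue, SW48 red. SCARB2 rises from a mean of 73.7 to 106 in 23132/87 and falls from 99.5 to 56.6 in SW48.

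Other genes of the lysosomal system were read as lists grouped by function, described by counts and medians. Over all genes, 46.5% were called in 23132/87 and 29.3% in SW48. Of 30 other lysosomal hydrolases listed in each line, 3 were higher and 9 lower in 23132/87 (median -0.10), and 1 was higher and 16 were lower in SW48 (median -0.40). That is 40% and 56.7% called. The cathepsin CTSV fell from 10.2 ± 0.456 to 3.84 ± 1.77 in 23132/87 (-1.28 ± 0.24, adjusted p = 0.00197) and from 18.8 ± 5.08 to 8.74 ± 1.95 in SW48 (-1.01 ± 0.20, adjusted p = 0.00346). FUCA1, the lysosomal alpha-fucosidase, fell in both lines as well (-0.57 ± 0.16, adjusted p = 0.0141 in 23132/87 and -1.13 ± 0.22, adjusted p = 0.00324 in SW48). Of the other membrane proteins and channels, 8 of 23 were higher and 4 lower in 23132/87, and 3 of 24 were higher and 2 lower in SW48, with medians of 0.19 and -0.01. Their shares called were 52.2% and 20.8%, the latter below the SW48 background. NPC1, which exports cholesterol from the lysosome, rose in both lines, from 10.7, 8.38 and 8.48 to 21.4, 18.9 and 18.8 in 23132/87 and from 10.5, 10.1 and 10.9 to 18.1, 20.1 and 22.0 in SW48, with no overlap (1.03 ± 0.12, adjusted p = 0.000157 and 0.87 ± 0.13, adjusted p = 0.000659). LAMP3, listed in SW48 only, rose there from 7.15 ± 1.83 to 22.6 ± 8.58 (adjusted p = 0.000991). TMEM63A, a membrane channel protein, fell in 23132/87 (-0.81 ± 0.12, adjusted p = 0.000444) and was not called in SW48 (0.28 ± 0.16, adjusted p = 0.214), a difference of 1.09 ± 0.21, adjusted p = 0.00402.

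Of 15 other V-ATPase subunits and assembly factors in each line, 4 were higher and 4 lower in 23132/87, and 2 higher and 2 lower in SW48, with medians of 0.03 and -0.12. These are 53.3% and 26.7% called, against 46.5% and 29.3% of all genes. ATP6V0E2, the paralogue of ATP6V0E1, fell in both lines (-0.83 ± 0.14, adjusted p = 0.000905 in 23132/87 and -0.82 ± 0.12, adjusted p = 0.000720 in SW48). NCOA7, a TLDc-domain protein that binds the V-ATPase, rose in both, from 12.2 ± 0.935 to 25.5 ± 4.31 (1.00 ± 0.13, adjusted p = 0.000249) and from 4.81 ± 1.06 to 13.5 ± 2.54 (1.32 ± 0.18, adjusted p = 0.000514). Of 28 genes that sort enzymes to the lysosome or position it, 6 were higher and 4 lower in 23132/87, and 1 higher and 8 lower in SW48, with medians of 0.05 and -0.20. Their shares called, 35.7% and 32.1%, were below the background in 23132/87 and near it in SW48. The sorting receptor SORT1 fell in both (-1.02 ± 0.13, adjusted p = 0.000220 and -1.07 ± 0.21, adjusted p = 0.00342). AP1S1, a subunit of the AP-1 clathrin adaptor, was higher in 23132/87 (0.42 ± 0.11) and lower in SW48 (-0.71 ± 0.13), a difference of -1.14 ± 0.18, adjusted p = 0.00123. BORCS5, a subunit of the complex that moves lysosomes outward, was higher in 23132/87 (0.93 ± 0.20) and not called in SW48 (-0.55 ± 0.26), a difference of -1.48 ± 0.36, adjusted p = 0.0163.

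The TFEB family was uneven. TFE3 was 12.5, 13.2 and 12.0 in 23132/87 vehicle and 25.4, 24.5 and 23.3 with myricone C, all treated libraries being higher (0.91 ± 0.10, adjusted p = 8.89e-05). In SW48 it was 14.8, 16.9 and 14.1 and 14.2, 17.2 and 18.3, overlapping (0.11 ± 0.14, adjusted p = 0.596), and the difference between the lines was -0.80 ± 0.16, adjusted p = 0.00560. TFEB, listed in SW48 only, was at 2.77 ± 0.413 and 2.40 ± 0.142 and was not called (-0.14 ± 0.15, adjusted p = 0.502). MITF was low and not called in either line (0.17 ± 0.20 and 0.30 ± 0.20). Of the list that adds mTORC1 genes of the lysosomal surface, 6 of 21 were higher and 5 lower in 23132/87, and 2 of 22 were higher and 7 lower in SW48, with medians of -0.15 and -0.09. That is 52.4% and 40.9% called, against 46.5% and 29.3% of all genes. RRAGC, a Rag GTPase, rose in 23132/87 (0.87 ± 0.14, adjusted p = 0.000914). In SW48 the Ragulator subunit LAMTOR2 fell (-0.94 ± 0.13, adjusted p = 0.000480), and it was not called in 23132/87 (-0.08 ± 0.14), a difference of -0.85 ± 0.20, adjusted p = 0.0119. YWHAE, a 14-3-3 protein, fell in both (-0.55 ± 0.12 and -0.62 ± 0.12).

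Of the genes that respond to lysosomal damage, 4 of 11 were higher and 2 lower in 23132/87, and 2 of 10 were higher and 4 lower in SW48, with medians of -0.04 and -0.06. These are 54.5% and 60% called, against 46.5% and 29.3% of all genes. TRIM16, a ubiquitin ligase partner of galectin-3 at damaged membranes, rose from 33.5 ± 1.74 to 80.6 ± 13.6 in 23132/87 (1.23 ± 0.12, adjusted p = 4.89e-05) and in SW48 (0.72 ± 0.13, adjusted p = 0.00268). LGALS8, the galectin that marks broken vesicles, rose in 23132/87 (0.84 ± 0.12, adjusted p = 0.000314) and was not called in SW48 (0.14 ± 0.13, adjusted p = 0.442), a difference of -0.70 ± 0.17, adjusted p = 0.0166. CHMP2A, of the ESCRT-III repair machinery, fell in SW48 (-0.63 ± 0.16, adjusted p = 0.0136), a call lost when vehicle replicate 1 or myricone C replicate 3 was left out (0.0526 and 0.0511), and was not called in 23132/87 (-0.04 ± 0.10).

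Some of these values rest on genes whose reads could be shared. In the annotation, 20 members have another gene, on either strand, in their exons and 7 have named pseudogenes (CTSL, GUSB, GM2A, ATP6V0C, ATP6V0E1, ATP6V1E1 and ATP6V1G1). How reads were counted, and with what strand setting, is not stated in the labels, so the levels of these members are uncertain. Among members called in both lines, PPT1 is overlapped in its exons by CAP1 on the opposite strand. CAP1 was called lower in 23132/87 (-0.68 ± 0.09, adjusted p = 0.000202) and not called in SW48 (-0.25 ± 0.11, adjusted p = 0.101). ATP6V1D overlaps EIF2S1, also on the opposite strand, which was called in neither line (0.03 ± 0.11 and 0.06 ± 0.14). The listed gene that overlaps a member on the same strand was PNPLA6, at MCOLN1, called in neither line (-0.29 ± 0.14 and -0.48 ± 0.17). The part of CAP1 in the PPT1 values was not tested.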

How the data were processed

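RNA of 12 libraries was measured, 3 in each of 4 groups, which were taken from the labels. The authors deposited 1 table per line, each with a signal per gene. Its unit, counting tool, strand setting and annotation were not stated in the labels. Per the submitters' processing notes, FastQC and STAR were used with GRCh38. Per the labels' protocols, library preparation used TruSeq Stranded mRNA reagents. The signal is not whole reads, so read depth and counting error are unknown. Every listed value is at least 1, so a gene under 1 in any library of a line is not listed there. That can include genes that treatment raised from, or lowered to, such values. Tables were scaled separately, and levels were not tested between lines.

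Values were taken as log2(signal + 1), a scale that understates changes of low genes. A minimum mean of 1 removed no gene. The test was limma 3.58.1 in R 4.3.3 with its trend option, and p-values were adjusted over all genes by Benjamini-Hochberg (threshold 0.05). It was fitted on the 6 libraries of each line. The difference was the line-by-treatment term over 10252 genes joined by Ensembl identifier. The fits were tested on simulated data. Positions are from GENCODE on GRCh38, and promoter sequences from RefSeq on GRCh38.p14.

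The members and lists were chosen with earlier results of these data known, so no list was tested. Every library value is given for members called in both lines, for the largest called change of each class and line, and for members called in the difference. Of other genes, TFEB, TFE3 and MITF are named where listed, with the 2 largest called changes per list and line. A gene covered by this rule is not reported here. Alternatives were pseudocounts, scalings, filters, no trend, replicate blocks, 1 fit of all libraries and leaving out each library. Libraries with the same replicate number in the titles did not deviate together, but 3 libraries per group are too few to show that they were unpaired. In SW48 the column names number the treated libraries differently from the titles.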

Additional observations from a re-analysis of the deposited data

Results flagged for a closer look

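For the genes here, the response to myricone C differed between the lines by limma's line-by-treatment term, with the 23132/87 log2 change subtracted from that in SW48. Of the members these are SCARB2 at -1.31, ATP6V1D at -0.87, GAA at -0.86, LIPA at -0.86, LAMP2 at -0.72 and PSAP at -0.66. Each was lower in SW48 relative to 23132/87.

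Among the other lysosomal genes named, BORCS5 differed by -1.48, AP1S1 by -1.14, LAMTOR2 by -0.85, TFE3 by -0.80 and LGALS8 by -0.70. TMEM63A, at 1.09, was the one gene named for a called difference in the other direction. With the replicate block by column-name numbers BORCS5 and LGALS8 missed the threshold, at adjusted p of 0.0804 and 0.0635.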

How the results depend on the processing

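Of 2178 values of members under alternatives, 105 lost a call, 25 gained one and 0 called values had another sign. Calls kept under every alternative run were 14 of 19 in 23132/87, 11 of 19 in SW48 and 4 of 6 in the difference. In SW48 quantile normalization gave 1 member higher and 12 lower, and 1 V-ATPase subunit higher and 1 lower. Rescaling without small RNA and mitochondrial pseudogene rows gave 13 lower members, 2 of them V-ATPase subunits. Fitting all 12 libraries together gave 1 member higher, a hydrolase. The stricter filter left 812 genes called in the difference, from fewer genes tested. Causes of the other shifts were not tested.

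Same-numbered libraries did not deviate together (r from -0.270 to 0.112 in 23132/87 and from -0.175 to -0.0732 in SW48). With the replicate block by title numbers, 2 hydrolases were higher in 23132/87, 2 V-ATPase subunits were lower in SW48, and the difference had 770 genes called and 1 lower hydrolase. The block by column-name numbers was possible for 2 pairs in SW48, whose r of 0.152 and 0.271 were the highest of that line. It kept 15 of the 19 member calls in SW48 (GAA, GM2A, ATP6V0D1 and ATP6V1D were lost) and gave 2 lower V-ATPase subunits.

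Leaving out each library in turn gave, in 23132/87, 3959 to 4888 genes called, 7 to 10 members higher and 7 to 11 lower, 2 to 5 hydrolases higher and 5 to 8 lower, and 2 to 3 V-ATPase subunits lower. In SW48 it gave 2199 (without myricone C replicate 2) to 3656 genes called, 0 to 1 members higher and 11 to 18 lower, 0 to 1 hydrolases higher and 7 to 12 lower, and 1 to 3 V-ATPase subunits lower. In the difference it gave 831 (without SW48 vehicle replicate 2) to 1413 genes called, 4 to 8 members lower and 1 to 4 hydrolases lower. Depth is unknown, so its limit on low genes such as SMPD1 and MCOLN1 cannot be given.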

Other observations

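Ratios of members within a library do not depend on how that library was scaled, and the ratios given here were chosen after their values were seen. CTSD over CTSH was 7.25 to 8.65 in 23132/87 vehicle and 24.9 to 29.2 with myricone C, and 2.84 to 4.68 and 6.85 to 9.52 in SW48, so the groups were apart in both lines. The V1 subunit ATP6V1E1 over the V0 subunit ATP6V0E1 was 0.706 to 0.844 in 23132/87 vehicle and 1.24 to 2.03 with the compound, and 0.578 to 0.635 and 0.864 to 1.44 in SW48, again apart. SCARB2 over CTSZ was apart in 23132/87, 0.353 to 0.473 in vehicle and 0.781 to 1.04 with myricone C, and overlapped in SW48, at 1.25 to 1.59 and 1.56 to 1.62. These ratios show unequal change, not which gene moved.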
